A study of Oryza sativa with 9 samples.

Results

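Mutant line 2 of the rice double mutant osatxr5c;osatxr6kd was compared with wild type (WT) across the genes of the leaf transcriptome. The comparison was defined by the sample titles and used 6 of the 9 libraries of the study, 3 of WT and 3 of mutant line 2. Both groups were leaves of field-grown plants aged 40 days, and RNA was measured by sequencing of total RNA. The WT libraries carried the genotype label WT and the title NP, and the mutant libraries carried the genotype osatxr5c;osatxr6kd with the line number 2 in their titles. The labels do not explain the suffixes c and kd, the origin of the line or the number of plants behind a library. Since nothing states that the libraries of a group came from separate plants, p-values measure the spread between these libraries, which may be technical. Mutant line 2 is 1 line, so an effect of its genotype and a property of that line cannot be told apart here. The other 3 libraries, from mutant line 1 with the same genotype label, stayed out of every test, and their values are given beside some genes as a description.

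ATXR5 and ATXR6 are H3K27 methyltransferases of plants. In Arabidopsis they place a single methyl group on this residue of histone H3, a mark of silent chromatin, and loss of both is known there for release of silenced repeats and for extra DNA replication in heterochromatin. Trimethylation of the same residue by Polycomb complexes, a separate mark, keeps developmental genes off.

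The values are the authors' TPM, a relative transcript abundance corrected for gene length in which each library sums to 1000000. Depth is unknown. The WT libraries listed 21885, 21834 and 21798 genes above 0, and those of mutant line 2 listed 22488, 22621 and 22397. Every mutant library thus listed more genes than every WT library. The means were 21839 ± 43.7 (SD, n = 3) and 22502 ± 113 (SD, n = 3), and a two-sided exact permutation test of the difference of 663 genes gave p = 0.1, the smallest that 3 against 3 can reach. On the log2(TPM + 1) scale, Pearson's r across the tested genes was between 0.990 and 0.994 within WT, between 0.993 and 0.994 within mutant line 2 and between 0.969 and 0.973 between the groups.

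Genes are given by locus identifier. Of the 55986 identifiers in the table, 0 matched the 39387 gene records used for names, so no symbol or function is given for them. OsATXR5, OsATXR6 and leaf marker genes were therefore not looked up by name, though their identifiers may be among those described. In rice locus identifiers the digits before the letter g give the chromosome and the number after it runs along that chromosome. Of the identifiers, 185 name no chromosome, and 0 of these passed the minimum level.

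Many transcripts differed between mutant line 2 and WT, most of them by a small amount, and the large differences were mostly rises. Of 19331 genes averaging 1 TPM or more, limma's test called 4379 at an adjusted p of 0.05 (Benjamini-Hochberg), which is 22.7% of those tested. Of these, 2646 were higher (13.7% of tested genes) and 1733 were lower (8.96%). The median rise was 0.54 and the median fall was -0.38 on the log2(TPM + 1) scale, with a median standard error of 0.10 over all tested genes. Changes under 0.5 made up 54.7% of the called genes. Of the called genes, 493 rose by at least 1 (2.55% of tested genes) and 69 fell by at least 1 (0.357%), while 113 rose and 4 fell by at least 2.

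The libraries of the groups did not overlap in 4330 of the 4379 called genes. Over all tested genes, 21% lay higher and 16.8% lay lower in every library of mutant line 2 than in every WT library. The balance of rises and falls among called genes depended on the scaling method. Rises made up 60.4% of the called genes as deposited, 58% after median-ratio scaling and 49.2% after quantile normalization. Quantile normalization, which gives the 6 libraries the same distribution, counted 2312 rises and 2384 falls. Among changes of at least 1, rises made up 87.7% as deposited, 87.4% after median-ratio scaling and 83.1% after quantile normalization. With a pseudocount of 0.1 in place of 1, the falls of at least 1 numbered 126 and the rises 676.

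**Figure D1:**
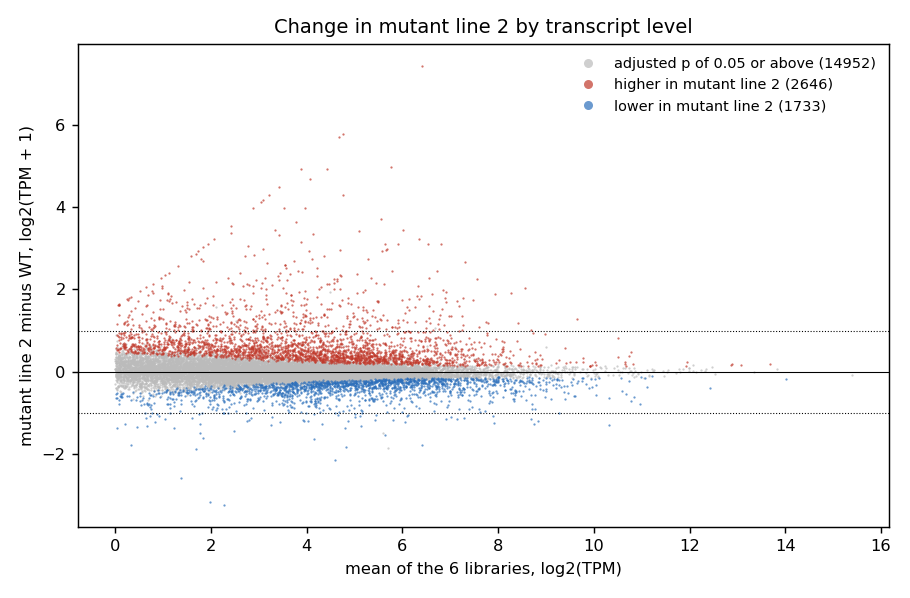
Change in mutant line 2 against WT on the log2(TPM + 1) scale (vertical axis) for each of the 19331 tested genes, against the log2 of its mean TPM over the 6 libraries (horizontal axis). Red points are the 2646 genes called higher, blue points the 1733 called lower and grey points the rest, and dotted lines mark changes of 1 in either direction; the points beyond the upper line far outnumber those beyond the lower one.

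Called genes that rose had a median of 11.5 TPM in WT and 19.8 TPM in mutant line 2, and called genes that fell had a median of 35.1 TPM in WT and 25.9 TPM in mutant line 2. The median over all tested genes was 13.2 TPM in WT. Genes higher by at least 1 had a median of 3.99 TPM in WT and 16.5 TPM in mutant line 2, and genes lower by at least 1 had a median of 21.4 TPM in WT and 8.08 TPM in mutant line 2. Of the 493 genes higher by at least 1, 31 were listed at 0 in every WT library, and the others were above 0 in at least 1 WT library. Summed over the called genes, rising transcripts went from a mean of 142725 TPM per WT library to 192344 TPM per line 2 library, and falling transcripts from 204868 to 158958 TPM.

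In the values as deposited, the balance of rises and falls turned with level. Between 1 and 5 TPM, 12.5% of 5114 tested genes were higher and 4.18% were lower. Between 20 and 100 TPM the shares were 14.6% and 11% of 6126 genes. Between 100 and 1000 TPM the lower genes outnumbered the higher ones, at 26.4% against 19% of 1349 genes. At 1000 TPM or more the shares were 18.8% lower and 15.8% higher, of only 101 genes. Shares by level under the other scaling methods are not given here. The standard error was smaller for abundant genes, with a median of 0.15 in the lowest range and 0.05 between 100 and 1000 TPM, so smaller changes could pass there. The median size of a called change was 0.65 in the lowest range and 0.31 between 100 and 1000 TPM.

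**Figure D2:**
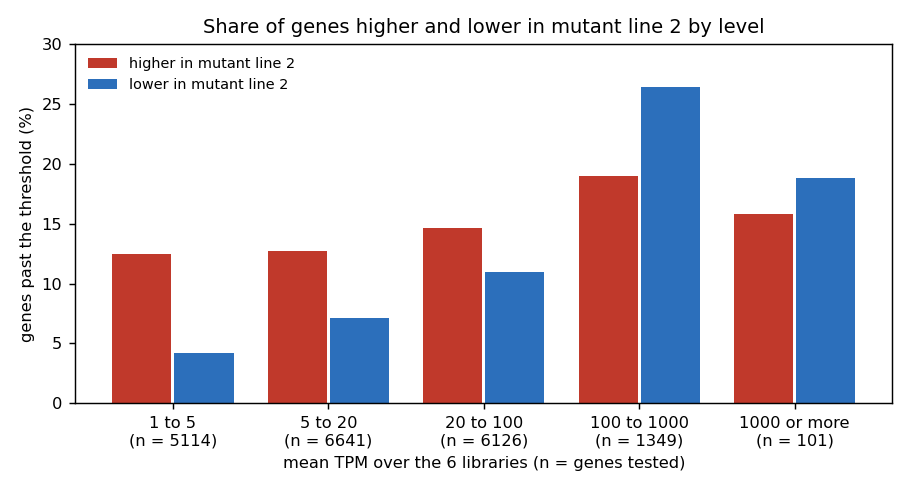
Percent of tested genes called higher (red bars) and lower (blue bars) in mutant line 2, in 5 ranges of mean TPM over the 6 libraries, with the number of tested genes under each range. Higher genes lead in the 3 lower ranges and lower genes lead from 100 TPM upwards.

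The largest rises among genes above 0 in all 6 libraries took transcripts from a few TPM to 18.2 TPM or more. LOC_Os04g23550 on chromosome 4 was at 2.01, 3.61 and 1.78 TPM in the WT libraries against 105, 112 and 98.8 TPM in mutant line 2, a 42.7-fold ratio of means. The log2 change was 4.97 ± 0.15 (SE), limma adjusted p = 2.3e-10. LOC_Os08g36920 was at 2.46, 1.24 and 1.62 TPM in the WT libraries against 56.9, 53.8 and 45.9 TPM in mutant line 2, with a change of 4.28 ± 0.14 (SE) and a limma adjusted p of 4.9e-10. Neither gene had a WT library near any library of mutant line 2. Mutant line 1 held 91.3 ± 5.83 TPM (SD, n = 3) of the first and 43.3 ± 4.19 TPM (SD, n = 3) of the second.

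LOC_Os01g06876 stood apart from these in the values of the other line. It was at 5.04, 5.67 and 6.64 TPM in the WT libraries against 85.2, 85.3 and 92.3 TPM in mutant line 2, a change of 3.71 ± 0.09 (SE), limma adjusted p = 3.3e-11. Mutant line 1 held 8.08, 8.73 and 8.05 TPM, nearer to WT than to mutant line 2, although these differences were not tested here. LOC_Os02g06930 was nearly constant within WT, at 9.90, 9.96 and 10.1 TPM, and reached 117, 114 and 127 TPM in mutant line 2. That change was 3.45 ± 0.07 (SE), limma adjusted p = 4.7e-12.

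The other 4 of the 8 largest rises started from 5.04 TPM or less in WT. LOC_Os02g45450 was at 1.38, 1.03 and 0.609 TPM in the WT libraries against 29.6, 31.5 and 30.01 TPM in mutant line 2. LOC_Os02g50110 was at 0.950, 1.17 and 1.39 TPM in the WT libraries against 22.1, 25.7 and 30.6 TPM in mutant line 2. LOC_Os12g05440 was at 0.881, 0.775 and 0.943 TPM in the WT libraries against 21.0, 19.1 and 18.2 TPM in mutant line 2. All 3 were below 1.4 TPM in every WT library and above 18 TPM in every library of the mutant line. LOC_Os01g66860 went from 5.04 ± 0.751 TPM (SD, n = 3) to 63.0 ± 0.549 TPM (SD, n = 3). The changes of these 4 genes lay between 3.41 and 3.98 on the log2(TPM + 1) scale, and the highest of their limma adjusted p-values was 8.2e-10.

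Among genes above 0 in all 6 libraries, the largest falls were smaller than the largest rises. LOC_Os10g09990 on chromosome 10 was at 44.1, 38.8 and 36.6 TPM in the WT libraries against 8.08, 8.83 and 7.55 TPM in mutant line 2, a 4.88-fold lower mean. The log2 change was -2.15 ± 0.09 (SE), limma adjusted p = 3.2e-09. The 8 largest falls of genes above 0 in all 6 libraries lay between -2.15 and -1.43, whereas each of the 8 largest rises exceeded 3.4. Larger fitted falls belonged to genes listed at 0 in mutant line 2 and described below, -3.16 for LOC_Os11g11694 and -2.58 for LOC_Os04g09450.

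A pair of neighbouring identifiers on chromosome 9 fell together. LOC_Os09g19510 was at 45.1, 43.9 and 44.9 TPM in the WT libraries against 11.97, 12.03 and 11.9 TPM in mutant line 2, a change of -1.82 ± 0.07 (SE), limma adjusted p = 9.7e-10. LOC_Os09g19500 was at 32.3, 24.1 and 26.3 TPM in the WT libraries against 8.33, 8.40 and 7.51 TPM in mutant line 2, a change of -1.64 ± 0.11 (SE), limma adjusted p = 1.9e-07. In mutant line 1 the former was at 13.9 ± 0.643 TPM (SD, n = 3) and the latter at 9.21 ± 1.68 TPM (SD, n = 3).

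A second close pair, on chromosome 4, also fell. LOC_Os04g54210 was at 173, 112 and 115 TPM in the WT libraries against 33.3, 42.5 and 36.5 TPM in mutant line 2, a change of -1.78 ± 0.14 (SE), limma adjusted p = 1.1e-06. LOC_Os04g54230 was at 74.2, 72.1 and 76.6 TPM in the WT libraries against 25.2, 24.7 and 24.3 TPM in mutant line 2, a change of -1.55 ± 0.06 (SE), limma adjusted p = 1.4e-09. The first WT library was high for LOC_Os04g54210, but the lowest WT library was still far above every library of mutant line 2. In mutant line 1 this pair was at 137 ± 12.8 TPM and 62.1 ± 7.36 TPM (SD, n = 3). How reads shared between near-identical or overlapping neighbours were assigned is not given in the sources used here, so the members of such pairs are uncertain as separate genes.

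The remaining 3 of the 8 largest falls were of transcripts under 9 TPM in the WT mean. LOC_Os02g43330 went from 5.90 ± 0.644 TPM (SD, n = 3) to 1.259 ± 0.358 TPM (SD, n = 3). LOC_Os01g61470 went from 5.47 ± 0.568 TPM (SD, n = 3) to 1.32 ± 0.451 TPM (SD, n = 3). LOC_Os03g03810 was at 8.71, 6.79 and 10.4 TPM in the WT libraries against 2.44, 3.11 and 2.103 TPM in mutant line 2, limma adjusted p = 2e-05. In mutant line 1 this gene was at 18.0, 12.6 and 14.2 TPM, above all 3 WT libraries, a difference that was not tested here.

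**Figure D3:**
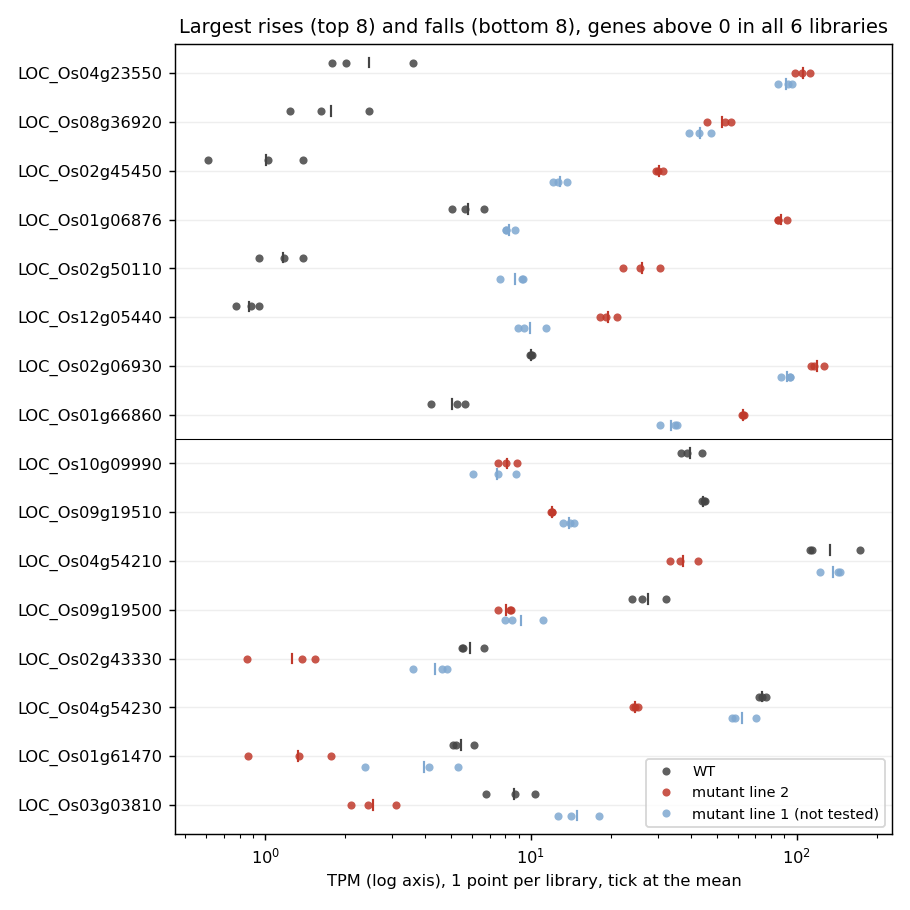
TPM on a log axis of the 8 largest rises (top) and 8 largest falls (bottom) in mutant line 2 among genes above 0 in all 6 compared libraries. Each point is 1 library, ticks are group means, and mutant line 1 (blue) did not enter the test; the WT points (grey) and line 2 points (red) do not overlap for any of these genes, from LOC_Os04g23550 at 105, 112 and 98.8 TPM in line 2 to LOC_Os03g03810 at 2.44, 3.11 and 2.103 TPM.

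Transcripts listed at 0 in one group and present in every library of the other were far more often present in mutant line 2. There were 243 genes listed at 0 in all 3 WT libraries and above 0 in all 3 of mutant line 2, on all 12 chromosomes, and 35 genes of the reverse kind. Of the 55986 identifiers, 24283 were above 0 in at least 1 of the 6 libraries and 31703 were at 0 in all 6. Every mutant library also listed more genes above 0 than every WT library, so these counts are not separate from that difference. The 35 became 54 to 72 when any 1 of the 6 libraries was left out. That growth is by construction, since fewer libraries had to meet the rule, and the same change can only add to the 243. Most were faint: 170 of the 243 and 30 of the 35 had a mean under 1 TPM. At 1 TPM or more in all 3 libraries of the group that had them, 57 and 3 genes remained. The lowest value above 0 of a library was between 0.303 and 0.326 TPM, so a transcript below about that level was listed at 0, and no fold change is given against 0. A few zeros can also be failed estimates, since 8 genes combined a listed 0 with a value of 5 TPM or more inside one group.

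The 5 highest of the 243 genes were well above that edge. LOC_Os02g53240 was listed at 0 in every WT library and was at 169, 176 and 167 TPM in mutant line 2. LOC_Os03g18779 was at 55.7, 52.7 and 53.3 TPM in mutant line 2, and LOC_Os11g31630 was at 31.6, 29.8 and 27.3 TPM. Mutant line 1 also contained these 3 transcripts, with means of 139 ± 4.09, 56.9 ± 3.87 and 24.6 ± 1.05 TPM (SD, n = 3). The other two were listed at 0 in WT and in mutant line 1 alike. LOC_Os04g42399 was at 48.1, 50.9 and 53.9 TPM in mutant line 2, and LOC_Os10g06030 was at 21.7, 22.0 and 20.9 TPM.

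Of the 35 genes listed at 0 in mutant line 2, the highest was LOC_Os11g11694, at 8.23, 8.45 and 7.16 TPM in WT. Mutant line 1 held 5.99, 5.34 and 4.57 TPM of it. LOC_Os04g09450 was at 3.64, 4.36 and 7.67 TPM in WT. LOC_Os02g07440 was at 1.56, 2.64 and 3.32 TPM, and LOC_Os11g35620 at 1.45, 0.653 and 1.31 TPM, in WT. The last 2 were listed at 0 in mutant line 1 as well.

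**Figure D4:**
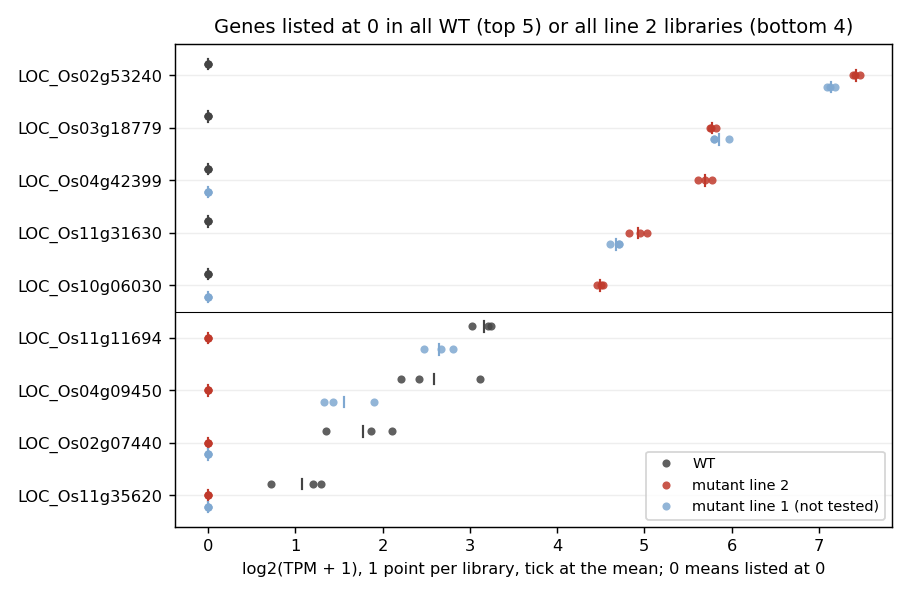
Levels on the log2(TPM + 1) scale of the 5 highest genes listed at 0 in all WT libraries (top) and the 4 highest listed at 0 in all libraries of mutant line 2 (bottom). Each point is 1 library and ticks are means of the log values; the line 2 points of the top genes reach up to 176 TPM, while the WT points of the bottom genes stay at or below 8.45 TPM.

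The 4 most abundant leaf transcripts moved little. Of the 101 tested genes with a mean of 1000 TPM or more, 35 were called (34.7%, against 22.7% of all tested genes). The median size of these called changes was 0.24. LOC_Os11g47970, the highest of all, was at 46301, 43555 and 42712 TPM in the WT libraries against 43559, 42187 and 39568 TPM in mutant line 2, and the groups overlapped (change of -0.08 ± 0.05 (SE), limma adjusted p of 0.28). LOC_Os08g10020 was at 14079, 13938 and 14166 TPM in the WT libraries against 15119, 14796 and 14493 TPM in mutant line 2. Its groups did not overlap, but the change did not pass (limma adjusted p of 0.2). LOC_Os11g07020 was at 18327, 17270 and 17282 TPM in the WT libraries against 15140, 15738 and 15875 TPM in mutant line 2, a change of -0.18 ± 0.04 (SE), limma adjusted p = 0.0086.

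In absolute amount, the 3 largest rises past the threshold were small relative changes of very abundant transcripts. LOC_Os12g17600 was at 12728, 11996 and 12141 TPM in the WT libraries against 13453, 13834 and 14654 TPM in mutant line 2, a change of 0.19 ± 0.04 (SE), limma adjusted p = 0.0094. LOC_Os01g41710 went from 7032 ± 388 to 8057 ± 258 TPM (SD, n = 3), limma adjusted p = 0.0091, and LOC_Os12g19381 from 8181 ± 84.5 to 9141 ± 412 TPM (SD, n = 3), limma adjusted p = 0.017. The calls of these 3 genes and of LOC_Os11g07020 were lost after median-ratio scaling, where their limma adjusted p-values were 0.08, 0.077, 0.086 and 0.065. They were also lost with a constant prior variance and with quantile normalization. Quantile normalization gives every library the same value at the same rank. For transcripts at the very top it therefore could not test such a change. Without the second WT library the adjusted p of LOC_Os12g17600 was 0.057, that of LOC_Os01g41710 0.055 and that of LOC_Os12g19381 0.075. LOC_Os01g41710 was also at 0.052 without the third WT library and at 0.062 without the second library of mutant line 2, and LOC_Os12g19381 at 0.05, above the threshold before rounding, and at 0.065.

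The largest absolute falls beside LOC_Os11g07020 kept their calls under every alternative run. LOC_Os05g11320 on chromosome 5 was at 1901, 1723 and 1805 TPM in the WT libraries against 724, 733 and 767 TPM in mutant line 2, a 2.44-fold lower mean. The log2 change was -1.29 ± 0.05 (SE), limma adjusted p = 8.6e-10. LOC_Os05g11320 was the 1 gene of the 101 tested genes with a mean of 1000 TPM or more that changed by at least 1 in either direction. Its values in mutant line 1 were 872, 768 and 849 TPM. LOC_Os01g68300 was at 6539, 6021 and 6180 TPM in the WT libraries against 4592, 4649 and 5059 TPM in mutant line 2, a change of -0.39 ± 0.05 (SE), limma adjusted p = 7.1e-05.

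Along the chromosomes, called genes were found everywhere. The share of tested genes called ranged from 20.2% on chromosome 12 to 25.2% on chromosome 1, around the 22.7% of all tested genes. Chromosome 11 had the highest share of genes called higher, 16.9% of 1054, and the lowest share called lower, 7.02%. It also had the highest share of rises of at least 1, 43 genes or 4.08% against 2.55% of all tested genes. These shares are descriptions and were not tested between chromosomes.

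Consecutive tested identifiers that changed in the same direction formed runs. Runs of 4 or more loci numbered 28 among rises and 7 among falls. Of all tested genes, 13.7% were called higher and 8.96% lower. A higher share of calls gives more and longer runs by itself, and the run counts were not tested against these shares. The longest held 11 loci on chromosome 7, from LOC_Os07g04240 to LOC_Os07g04500, with 16 further identifiers between its ends that were below the minimum level. All 11 were higher in mutant line 2 with no overlap between the groups, by 0.34 to 1.77 on the log2(TPM + 1) scale, and the highest limma adjusted p was 0.0047.

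Within this run the abundant loci rose least. LOC_Os07g04500 was at 85.4, 84.1 and 86.2 TPM in the WT libraries against 103, 118 and 105 TPM in mutant line 2, and LOC_Os07g04240 was at 63.2, 70.5 and 72.9 TPM in the WT libraries against 107, 106 and 100.5 TPM in mutant line 2. The faint loci between them rose more. LOC_Os07g04430 was at 3.09, 2.08 and 1.63 TPM in the WT libraries against 9.32, 9.88 and 10.7 TPM in mutant line 2, a change of 1.77 ± 0.15 (SE), and LOC_Os07g04440 was at 1.98, 2.71 and 2.53 TPM in the WT libraries against 10.03, 8.91 and 12.3 TPM in mutant line 2, a change of 1.74 ± 0.14 (SE). Their limma adjusted p-values were 2.6e-06 and 1.1e-06. In mutant line 1 these 4 loci had means of 57.0, 60.1, 2.96 and 3.27 TPM. Only called loci make up a run, and the standard error was 0.06 at both ends. A faint locus thus needed a larger rise to enter, so the contrast is partly set by the selection. LOC_Os07g04390 and LOC_Os07g04400, with WT means of 0.212 and 0.722 TPM, passed the minimum level only through mutant line 2, at 2.30 and 3.04 TPM.

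**Figure D5:**
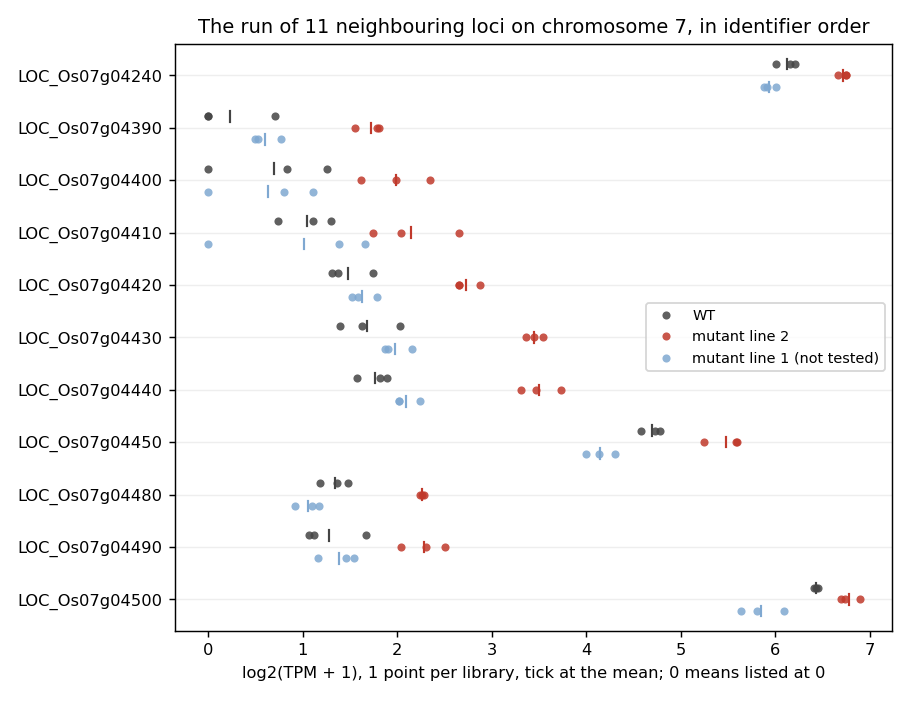
Levels on the log2(TPM + 1) scale of the 11 consecutive tested loci from LOC_Os07g04240 to LOC_Os07g04500 on chromosome 7, in identifier order, with 1 point per library and ticks at the means of the log values. At every locus the 3 points of mutant line 2 (red) lie above the 3 WT points (grey); mutant line 1 (blue) did not enter the test.

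The second longest run held 8 loci on chromosome 1, from LOC_Os01g02750 to LOC_Os01g02830, with 0 untested identifiers between them. The call of LOC_Os01g02750 was lost without the third library of mutant line 2, at a limma adjusted p of 0.057. LOC_Os01g02780 was at 66.7, 72.2 and 72.0 TPM in the WT libraries against 184, 179 and 184 TPM in mutant line 2, and its neighbour LOC_Os01g02790 was at 22.3, 25.4 and 24.7 TPM in the WT libraries against 61.7, 60.8 and 63.8 TPM in mutant line 2. These 2 loci rose by 1.36 and 1.33, while the other 6 rose by 0.39 to 0.63. A run of 6 loci on chromosome 5, from LOC_Os05g41550 to LOC_Os05g41630, contained LOC_Os05g41590, which went from 13.3, 13.4 and 13.4 TPM in WT to 66.7, 68.3 and 70.3 TPM in mutant line 2. The log2 change was 2.27 ± 0.06 (SE), limma adjusted p = 1.1e-10. In mutant line 1 the mean of LOC_Os05g41590 was 172 TPM, that of LOC_Os01g02780 183 TPM and that of LOC_Os01g02790 61.4 TPM. Other loci of these runs differed there. LOC_Os05g41550 had a mean of 73.4 TPM in mutant line 1 against 119 TPM in WT, and LOC_Os01g02760 of 6.22 against 6.07 TPM. Mutant line 1 was not tested here.

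Runs of falls held at most 4 loci, and falls were also the less frequent calls. The one with the largest median change, -0.64, ran from LOC_Os05g11300 to LOC_Os05g11510 on chromosome 5 and included the abundant LOC_Os05g11320 described above. The next ran from LOC_Os08g36440 to LOC_Os08g36500 on chromosome 8 with a median change of -0.62, and the third from LOC_Os01g12080 to LOC_Os01g12130 on chromosome 1 with a median change of -0.41. LOC_Os01g12080 was at 260, 282 and 286 TPM in the WT libraries against 194, 199 and 199 TPM in mutant line 2. At LOC_Os01g12130 the groups overlapped, at 58.4, 67.4 and 72.4 TPM in WT and 48.9, 53.0 and 59.3 TPM in mutant line 2. The limma adjusted p of LOC_Os01g12130 was 0.028 and became 0.089 and 0.11 without WT replicates 2 and 3 in turn and 0.13 and 0.092 without line 2 replicates 1 and 2 in turn. That of LOC_Os08g36440 was 0.02 and became 0.075 without the third WT library and 0.086 without the second library of mutant line 2.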

How the data were processed

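The authors deposited 1 table of TPM values with 1 column per library, and each column summed to 1000000. The submitters' processing notes name fastp 0.20.1, HISAT2 2.1.10 and DESeq2 1.26.0 without a role. The genome build, annotation, quantification program and strandedness are not given in the sources used here. TPM keep no depth, so precision rests on the spread between 3 libraries per group, moderated for each gene by the variances of all tested genes. Columns were matched to groups by title. From the table, limma 3.58.1 in R 4.3.3 was fitted to log2(TPM + 1) of the 6 libraries of WT and mutant line 2, for genes averaging 1 TPM or more, with no covariate and a variance trend. Tests were two-sided with Benjamini-Hochberg adjustment over all 19331 genes at 0.05. Fitted changes on this scale understate those of low genes. The fit was tested on simulated data. Figures were drawn with matplotlib 3.10.9.

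Named genes were the 8 largest rises and falls among called genes above 0 in all 6 libraries without overlap, the 5 and 4 highest listed at 0 in WT or in line 2, the 4 most abundant, the 3 largest rises and falls in TPM, and the ends of the 3 longest runs per direction (ties by median change). Members of these runs beyond the ends were chosen after their values were seen. The comparison and its rules were chosen with earlier results of these data known. Planned lists of genes by symbol were not analysed here.

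Alternatives were a pseudocount of 0.1, no minimum or a minimum of 5 TPM, quantile normalization, median-ratio scaling, a constant prior variance, a replicate block and each library left out.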

Additional observations from a re-analysis of the deposited data

Results flagged for a closer look

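Mutant line 1 did not enter the comparison, yet 3 of the 5 named genes that were listed at 0 in all WT libraries were present in all 3 of its libraries. Its means were 139 TPM for LOC_Os02g53240, 56.9 TPM for LOC_Os03g18779 and 24.6 TPM for LOC_Os11g31630. The other two, LOC_Os04g42399 and LOC_Os10g06030, were listed at 0 there. No difference between the lines was tested here.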

How the results depend on the processing

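The number of called genes lay between 3639 and 4954 under the alternatives that kept all 6 libraries, and between 3250 and 5102 with 1 library left out. The 3639 were of 14217 genes tested at a minimum of 5 TPM, against 19331 in the main fit. With no minimum, 4555 of 24283 tested genes were called. These counts therefore differ partly through the number of genes tested. Rises of at least 1 lay between 342, of the same 14217 genes, and 676. Falls of at least 1 went from 69 to 126 with a pseudocount of 0.1 and to 44 with a minimum of 5 TPM, where fewer genes were tested. Leaving out the 8 genes with unstable zeros, an alternative added after the data were seen, gave 4399 calls. The difference in genes listed above 0 was 547 at 0.5 TPM and 447 at 1 TPM, against 663. The genes present in 1 group alone went from 243 to 57 and from 35 to 3 at 1 TPM, and the 35 became 54 to 72 with 1 library left out, by construction, since fewer libraries had to meet the rule. A replicate block raised the calls to 4954. Same-numbered libraries deviated together with r of 0.21, 0.03 and 0.13, against -0.18 to 0.10 for differently numbered ones. These values do not settle whether the numbers pair the libraries. The labels do not state a pairing, so the block was kept as an alternative only.

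Of 500 refits of 36 named genes, 472 kept the direction and the call. LOC_Os08g10020, not called, reversed to -0.048 with quantile normalization, which sets the values at the top ranks by rank alone. In runs checked after the data were seen, the run on chromosome 7 kept 5 called loci at a minimum of 5 TPM, the others being untested there. The run from LOC_Os01g12080 kept 2 loci with a constant prior variance and 2 to 4 with 1 library left out, and that from LOC_Os08g36440 kept 2 to 4. Depth is unknown, so counting error cannot be given for low genes.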

Other observations

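Neighbouring loci tended to change in the same direction in mutant line 2, a measure added after the data were seen. Among pairs of adjacent tested identifiers that were both called, 808 of 1159 had the same direction, or 69.7%, of which 570 pairs were both higher and 238 both lower. The share was 58.3% for pairs 2 tested loci apart, 56.2% for pairs 5 apart and 51.5% for pairs 50 apart. Under the alternatives the share for adjacent pairs lay between 63.3% and 71.8%. Overlapping transcripts and reads shared between tandem copies were not examined.

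The large rises were also counted in 639 windows of 30 consecutive tested loci, a division chosen after the data were seen. In 319 windows there was no rise of at least 1, and 4 windows held 6 or more. The fullest, with 8 rises of at least 1 and 15 loci called higher and 0 called lower, ran from LOC_Os11g29970 to LOC_Os11g31900 on chromosome 11. It contains LOC_Os11g31630, listed at 0 in WT and described above, and LOC_Os11g31420, which was listed at 0 in WT and was at 4.03, 3.45 and 4.14 TPM in mutant line 2. Both, and LOC_Os11g31450 with a WT mean of 0.878 TPM, passed the minimum level only through mutant line 2. The window was picked by its count of large rises, so that count is a description only. LOC_Os11g31470 was at 2.64, 3.58 and 2.37 TPM in the WT libraries against 17.3, 17.8 and 19.3 TPM in mutant line 2, and LOC_Os11g31430 was at 2.68, 3.30 and 3.18 TPM in the WT libraries against 16.3, 15.9 and 16.6 TPM in mutant line 2. Mutant line 1 held 14.1, 15.9 and 15.8 TPM of LOC_Os11g31470. The second fullest window, with 7 rises of at least 1, lay on the same chromosome from LOC_Os11g12010 to LOC_Os11g13850.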
